A study of Homo sapiens with 6 samples.

Results

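The transcripts of 10 genes of the NF-kB pathway were followed in WM-266-4, an established human melanoma cell line. They were the subunit genes NFKB1, NFKB2, RELA and RELB, the inhibitor genes NFKBIA and NFKBIE, and the target genes TNFAIP3, BIRC3, ICAM1 and IER3. Every array probe annotated to these symbols was used, which gave 10 probes for 8 of the 10 genes out of 48803 probes in all. BIRC3 and IER3 had no probe in the annotation used and were not analysed here. Of the 10 probes, 9 were detected often enough to be tested, among 18156 tested probes that represent 11264 genes.

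The CT16 group was 3 individual cultures of WM-266-4 cells with stable integration of the pEXPR-IBA103 plasmid carrying the cDNA of CT16 (PAGE5), a cancer-testis antigen of the X chromosome. The control group was 3 individual cultures with the same plasmid without an insert. Cells of both groups had been selected for G418 resistance, and whether each line was a clone or a pool was not given in the sources used here. RNA of each culture was hybridised to a separate 1-colour Illumina Human-6 bead array, and the comparison asks which transcripts differ in cells that carry the CT16 plasmid.

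NF-kB factors are dimers of Rel family proteins. Inhibitor proteins of the IkB family hold them in the cytoplasm until the IkB kinase marks the inhibitors for degradation, as after stimulation by TNF or interleukin-1. Genes for several inhibitors and for the ubiquitin-editing enzyme A20, encoded by TNFAIP3, are themselves transcribed by NF-kB and limit the response. The dimers bind short DNA elements called kB sites, and their targets include adhesion molecules, chemokines and survival genes.

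To show where elements of this kind lie near the member genes, the RefSeq promoter windows of GRCh38.p14 were searched on both strands for the kB consensus, a 10-base motif, from 250 bases before to 50 bases after each transcription start. The windows cover 7 of the 10 genes. A match was found in 5 of these 7 genes, against 13.3% of all 27305 genes with a window, and in 6 of their 11 windows, against 11.3% of 35116 windows. A looser form that only asks for GGG and CC with 5 bases between them was in 58.7% of all windows. The stretches of the 4 genes measured here follow, 5′ to 3′ in the direction of each gene, with the matches in capitals.
NFKB1, chr4:102501300-102501329, plus strand: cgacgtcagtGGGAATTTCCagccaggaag
NFKB2, chr10:102394461-102394519, plus strand: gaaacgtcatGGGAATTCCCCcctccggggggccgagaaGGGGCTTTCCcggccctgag
NFKB2, chr10:102395519-102395548, plus strand: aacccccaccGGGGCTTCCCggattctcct
NFKB2, chr10:102395674-102395703, plus strand: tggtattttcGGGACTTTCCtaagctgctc
NFKBIA, chr14:35404811-35404840, minus strand: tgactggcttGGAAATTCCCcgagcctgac
TNFAIP3, chr6:137867182-137867223, plus strand: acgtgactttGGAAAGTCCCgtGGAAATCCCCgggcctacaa
The first NFKB2 stretch holds 3 matches, of which the first and the second overlap. The TNFAIP3 stretch holds 2 matches in a row, and it ends 36 bases before the start. The BIRC3 window held matches as well, whereas the RELA and ICAM1 windows held none. A match describes the letters of the window and is not evidence of binding in these cells.

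Among the 8 measured genes, TNFAIP3, the gene of A20, had the largest difference between the groups and NFKBIE the next, both higher in CT16 cultures. No subunit gene and neither NFKBIA nor ICAM1 separated the groups. None of the 8 passed the threshold of an adjusted p under 0.05 in the limma fit over all probes, while 27 of 11264 genes did, or 0.24%. At an unadjusted p under 0.05, 1 of the 8, TNFAIP3, was higher in CT16 cells, against 3.31% of all genes. All 3 CT16 arrays lay above all 3 control arrays for 2 of the 8, NFKBIE and TNFAIP3, against 6.79% of all genes. The median log2 difference, CT16 minus control, was 0.26 over the 8 genes and -0.025 over all genes. Of the 8 differences 7 were above 0, against 5320 of all 11264 genes, with RELB at only 0.0063 and NFKB1 at 0.021. Leaving out an array moved the member median to 0.036 without the second control, 0.14 without the third CT16 array, 0.43 without the second CT16 array and 0.57 without the third control. The count above 0 was 4 without the second control and 5 without the first control or the third CT16 array. It was 6 without the first or the second CT16 array and 7 without the third control.

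**Figure D1:**
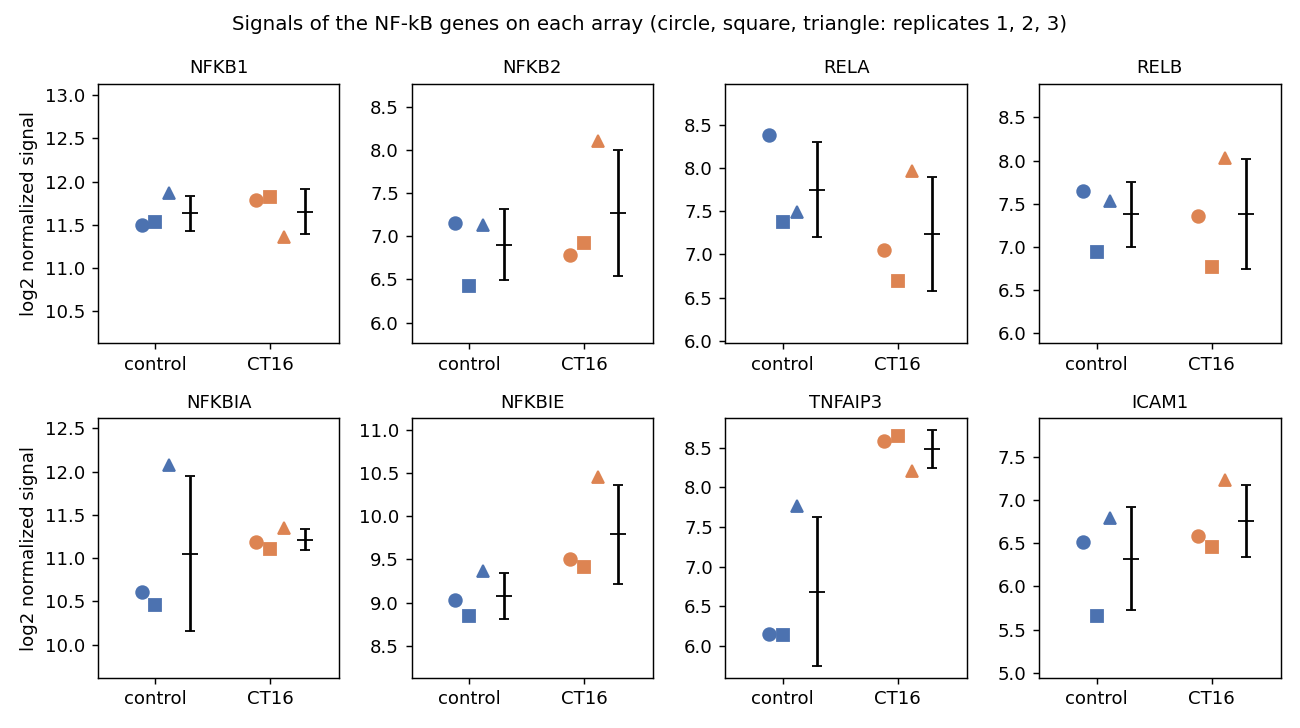
Normalised log2 signal (vertical axis) of the 8 measured genes, with 1 panel per gene, control cultures in blue, CT16 cultures in orange, a circle, square or triangle for replicates 1, 2 and 3, and black bars for the mean and SD of each group. TNFAIP3 and NFKBIE are the panels in which the groups do not overlap, and the third CT16 array lies above the other CT16 arrays in 6 of the 8 panels.

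The arrays differed in ways that the groups do not explain. The third CT16 array stood apart from every other array. Distance was taken as the median absolute deviation of the log2 differences between a pair of arrays, scaled to the SD of a normal distribution. It covered the 14091 probes detected on all arrays. The third CT16 array was 0.967 and 1.07 from the other CT16 arrays, whereas those were 0.234 apart. The first control array was 0.440 and 0.503 from the other controls, which were 0.167 apart. The share of probes detected was 33.2% on the third CT16 array and 35.1% to 38.5% on the others. The third CT16 array was also the highest of its group for 6 of the 8 member genes, against 49.6% of all genes. For named member and list genes whose value moved by over 1.5 times or turned its sign without it, that value is given. It is given for the brightest probe only. It is not given for the transfected gene, whose signal was also highest on the third CT16 array. Markers of melanocytes were present, with 6 of 7 detected on all arrays and a summed signal of 35200 to 40600 in CT16 and 37800 to 40600 in control cultures. Immune markers summed to 1390 to 2170 and 944 to 1390, with PTPRC, CD3E and CSF1R detected on no array. Fibroblast markers summed to 289 to 541 and 123 to 162, with COL3A1 detected on no array. Their 2 tested genes went opposite ways: THY1, not detected in control cultures, was at least 8.91-fold higher in CT16 cultures (adjusted p = 0.00810, and 0.0537 to 0.0950 without any 1 control or the first CT16 array), and LUM was lower on all CT16 arrays with a log2 difference of -1.87 (adjusted p = 0.100, and 0.0166 without the third CT16 array). Epithelial markers summed to 72.4 to 194 and 133 to 180, with KRT5 and KRT8 on no array, and endothelial markers to 211 to 472 and 218 to 280, with CDH5 on no array. The part of other cells in the results was not tested, and a level in bulk RNA does not separate fewer cells of a type from less RNA per cell. The transfected gene was read by 3 probes. The brightest gave signals of 80.7, 84.6 and 94.2 in control and 117, 120 and 171 in CT16 cultures, with 1.11 ± 0.37 (SE) between the group means on the log2 scale and an adjusted p of 0.582. The second differed by 0.019 and the third was not detected, and which of them the plasmid's cDNA would reach was not given in the sources used here. Apart from the arrays, the study reported CT16 mRNA by qRT-PCR and protein by Western blot in the stably transfected cells. Cells with the control plasmid served there as negative controls.

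NFKB1 encodes p105, the precursor of the p50 subunit. Its log2 signal was 11.50, 11.53 and 11.87 in control and 11.79, 11.82 and 11.35 in CT16 cultures. The groups overlapped, and the third CT16 array was the lowest of all 6. The means were 11.63 ± 0.20 and 11.65 ± 0.26 (SD, n = 3 each), a difference of 0.021 ± 0.24 (SE) with a 95% interval of -0.53 to 0.57 and an adjusted p of 0.991. Without the third CT16 array the difference was 0.17.

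RELA encodes p65, the subunit with a transactivation domain that pairs with p50 in the classical pathway. The log2 signals of RELA were 8.38, 7.37 and 7.49 in control and 7.05, 6.69 and 7.97 in CT16 cultures. It was the only member with a lower mean in CT16 cultures, and 2 of the 3 CT16 arrays lay below every control array while the third lay inside the control range. The difference was -0.51 ± 0.41 with an interval of -1.47 to 0.45 (adjusted p = 0.959), and it was -0.88 without the third CT16 array and -0.20 without the first control array.

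NFKB2 and RELB encode p100, the precursor of p52, and RelB, which form the dimer of the alternative pathway. The brightest NFKB2 probe gave 7.16, 6.42 and 7.13 in control and 6.78, 6.92 and 8.11 in CT16 cultures on the log2 scale. Apart from the third CT16 array, which was 1.26 above the mean of the other CT16 arrays, all values lay within the control range. The difference was 0.36 ± 0.40 with an interval of -0.58 to 1.31 (adjusted p = 0.959), and without the third CT16 array it was -0.056. A second NFKB2 probe, detected on all CT16 arrays and 2 of 3 control arrays, was likewise high on the third CT16 array (5.35, 5.61 and 6.92) and a difference of 0.25 ± 0.47, and the third NFKB2 probe was detected on no array. RELB gave 7.65, 6.95 and 7.53 in control and 7.35, 6.77 and 8.03 in CT16 cultures. The RELB means were 7.38 in both groups, with a difference of 0.0063 ± 0.37 and an interval of -0.85 to 0.86. Leaving out 1 array moved the RELB difference to between -0.32, without the third CT16 array, and 0.32, without the second, so that its sign is set by single arrays. REL, the remaining subunit gene, had 2 probes that were detected on no array. No subunit gene thus differed beyond the spread between replicates, although the intervals leave room for differences of up to 1.31 in NFKB2 and -1.47 in RELA.

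NFKBIA encodes IkBa, the inhibitor that NF-kB itself induces early. On the log2 scale NFKBIA gave 10.61, 10.46 and 12.08 in control and 11.19, 11.11 and 11.34 in CT16 cultures. The CT16 arrays were close together (11.21 ± 0.12), whereas the third control array lay above every other array and gave the control group a wide spread (11.05 ± 0.90). Before normalisation the same 3 control signals were 1459, 1550 and 4340, against 2304 to 2608 in CT16 cultures. The difference was 0.17 ± 0.43 with an interval of -0.84 to 1.17 (adjusted p = 0.978). Without the third control array it was 0.68, and without the third CT16 array it was 0.10.

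NFKBIE encodes IkBe, another inhibitor of the same family. The NFKBIE probe gave log2 signals of 9.03, 8.84 and 9.37 in control and 9.51, 9.42 and 10.45 in CT16 cultures. The groups did not overlap, by a margin of less than the spread within either group, and the third CT16 array was again the highest. The difference was 0.71 ± 0.33, or 1.64-fold, with an interval of -0.056 to 1.48 (adjusted p = 0.845), and it was 0.38 without the third CT16 array.

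TNFAIP3 encodes A20, which removes and attaches ubiquitin chains on signalling proteins upstream of the IkB kinase and so ends the signal. Its log2 signal was 6.14, 6.14 and 7.77 in control and 8.59, 8.66 and 8.21 in CT16 cultures. All CT16 arrays lay above all control arrays, and the third control array lay much nearer to the CT16 group than the other controls did. The signals before normalisation were 105, 117 and 276 in control and 422, 497 and 267 in CT16 cultures, so that on that scale the lowest CT16 array was just under the highest control. The difference was 1.80 ± 0.45, or 3.48-fold, with an interval of 0.74 to 2.86 (adjusted p = 0.337), which ranked it 260 among the tested probes. It kept its sign without any 1 array, at 1.53 without the first or the second control array and 2.34 without the third. Without background correction the difference was 1.44, and with an offset of 50 it was 1.48.

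The call for TNFAIP3 depended on the test and on how the arrays were weighted or left out. By rank product, the test named in the study's methods, its estimated proportion of false positives was 0.004, and it was the 1 member past the threshold, against 1.04% of all genes. With array weights, which gave the third CT16 array 0.0710 and the second control array 4.71, the difference was 1.98 (adjusted p = 0.00915), in a fit in which 1879 of 18156 probes passed. Without both arrays numbered 3, a choice made after the data were seen, it was 2.48 (adjusted p = 0.000363), but those arrays hold its highest control and its lowest CT16 value, so that the choice itself widens the difference. In limma without any 1 array TNFAIP3 did not pass. The adjusted p was 0.883 without the first control, the control array farthest from the others. It was 0.141 without the third CT16 array and 0.113 without the third control.

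ICAM1 encodes the adhesion molecule that binds leukocyte integrins. Log2 signals of ICAM1 were 6.52, 5.65 and 6.79 in control and 6.58, 6.46 and 7.23 in CT16 cultures. The groups overlapped, and the second control array was the lowest and the third CT16 array the highest. The difference was 0.44 ± 0.36, or 1.35-fold, with an interval of -0.41 to 1.28 (adjusted p = 0.959), and it was 0.10 without the second control array and 0.20 without the third CT16 array.

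**Figure D2:**
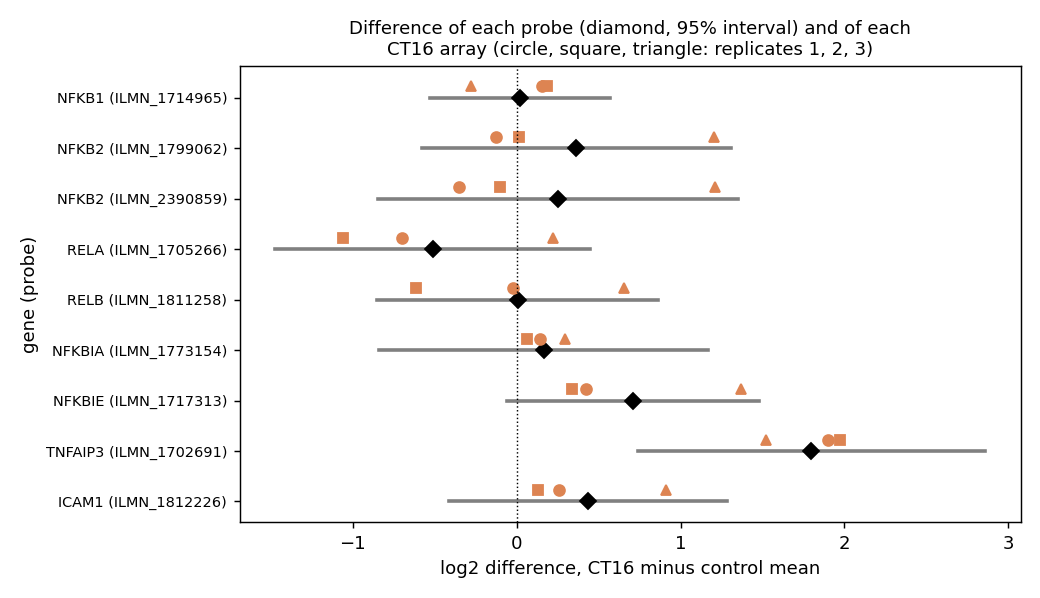
Log2 difference, CT16 minus control mean, of the 9 tested member probes: diamonds and grey lines give the limma estimate with its 95% interval, and orange symbols give each CT16 array (circle, square and triangle for replicates 1, 2 and 3). The interval of TNFAIP3, 0.74 to 2.86, is the one that lies above 0, and that of NFKBIE begins at -0.056.

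The members did not move as a block across the 6 arrays. NFKB2 and ICAM1 were the most alike (Pearson r = 0.89 over 6 arrays), followed by NFKBIE and NFKB2 (r = 0.87), and all of them were highest on the third CT16 array. The member nearest to TNFAIP3 was NFKBIE (r = 0.65), followed by NFKBIA (r = 0.62). With the group means removed, the r of NFKBIA and TNFAIP3 was 0.93, and both were highest of the controls on the third control array, while on the third CT16 array NFKBIA was the highest of its group and TNFAIP3 the lowest. These correlations are descriptions over 6 arrays that share 2 groups. Over all genes, the profile most like that of TNFAIP3 was that of CXCL1, the gene of a neutrophil chemokine (r = 0.99). CXCL1 gave log2 signals of 6.02, 6.04 and 9.09 in control and 10.03, 10.10 and 9.90 in CT16 cultures, with a difference of 2.96 (adjusted p = 0.361). The next were NBR1, SHISA2, GPR107 and LOC105274304, also at r = 0.99, with differences of 1.02, 2.02, 0.21 and 0.39, none of which passed the threshold.

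The third control culture was often the highest control for members and other target genes. It was the highest of the controls for 5 of the 8 members, or 62.5%, and for 16 of the 28 tested genes of the other target list, or 57.1%, against 29.1% of all genes. Among the 4 tested subunit genes it was the highest for 1, or 25%. The median of the third control minus the other controls was 0.39 over the members, 0.47 over the other targets and -0.022 over all genes. TNF, the gene of the cytokine that activates the pathway, was detected on this array only, at a signal of 106.7 before normalisation. The other control signals for TNF were 55.6 and 53.0, those of the CT16 cultures were 65.8, 54.0 and 63.5, and the probe was not tested. IL1A was detected on no array. Relative to the control mean of each gene, the members had a median of 0.26 on the third control array, 0.074 and -0.45 on the other controls, 0.78 on the third CT16 array and 0.15 and 0.097 on the other CT16 arrays.

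**Figure D3:**
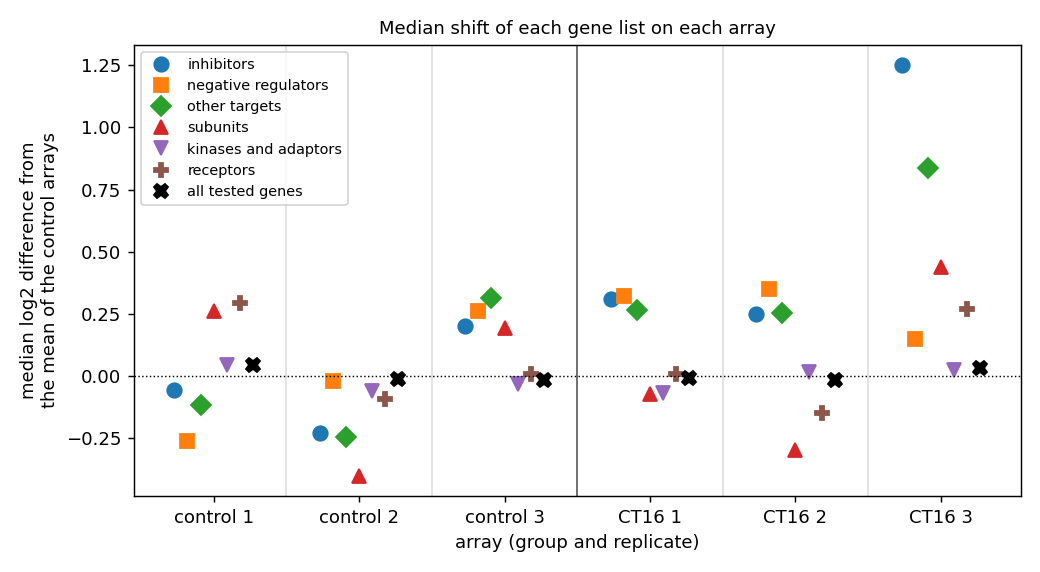
Median log2 difference of 6 gene lists and of all tested genes from the mean of the control arrays, with 1 column per array and 1 symbol per list. The inhibitors are at 1.25 and the other targets at 0.84 on the third CT16 array, and the other targets are at 0.31 on the third control array against -0.12 and -0.24 on the other controls.

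The wider pathway was described with 7 lists of genes by role, which hold the member genes too. In the inhibitor list all 6 genes had a positive difference with a median of 0.57, none passed the threshold, and 4 of 6 lay higher without overlap between groups, against 6.79% of all genes. The most separated was NFKBIZ, the gene of a nuclear IkB protein that is needed for a subset of secondary targets. Its log2 signal was 7.62, 8.45 and 9.94 in control and 11.43, 11.66 and 10.26 in CT16 cultures. The third control and the third CT16 array nearly met. The difference was 2.45 ± 0.62 (adjusted p = 0.338). A second tested NFKBIZ probe differed by 0.92 ± 0.28 (adjusted p = 0.509). NFKBIB differed by 0.65 ± 0.35 and NFKBID by 0.49 ± 0.26, both without overlap, and BCL3 by 0.49 ± 0.32 with overlap; these 3 were named after their values were seen. Without the third CT16 array they differed by 0.25, 0.26 and 0.17, and the median of the inhibitor list was 0.26.

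Upstream of the inhibitors lie the kinases, receptors and ligands. Of 16 tested genes for kinases and adaptors, none passed the threshold, 6 differences were above 0 and 10 below, and the median was -0.20. Without the third CT16 array 8 of the 16 were above 0 and the median was 0.023. IKBKG, the regulatory subunit of the IkB kinase, differed by 0.18 ± 0.29, IRAK1, a kinase of the interleukin-1 receptor pathway, by -0.61 ± 0.36, and MAP3K7, the kinase TAK1, by -0.35 ± 0.48. Without the third CT16 array they differed by -0.096, -0.98 and 0.19, so that the sign of IKBKG and MAP3K7 turned. Of 7 tested receptor genes none passed, with a median of 0.069 that was -0.025 without the third CT16 array. LTBR, the lymphotoxin receptor, differed by -0.15 ± 0.29, TNFRSF1A, the main TNF receptor, by 0.19 ± 0.27, and IL1RAP, the accessory chain of the interleukin-1 receptor, by 0.094 ± 0.34. Without that array these were -0.35, 0.0041 and 0.47. With all arrays, a second tested IL1RAP probe differed by -0.39 ± 0.46. Among 6 tested ligand genes 1 passed, IL1B, the gene of interleukin-1 beta, against 27 of all 11264 genes, or 0.24%. Its log2 signal was 7.20, 6.81 and 7.64 in CT16 cultures and 4.69, 4.52 and 4.80 in control cultures, where it was not detected on any array. IL1B thus met the detection filter through the CT16 arrays alone. It was at least 4.10-fold higher in CT16 cultures, a bound set against the lowest detected signal of each control array. The adjusted p of 0.0178 belongs to the fitted limma difference of 2.55, which was set against background. The call ended without some of the arrays: the adjusted p was 0.155 without the first control, 0.215 without the second, 0.113 without the third and 0.170 without the first CT16 array. The other ligands named were IL18 at 0.13 ± 0.29 and TNFSF13B, the gene of BAFF, at -0.38 ± 0.51. Without the third CT16 array they were at 0.32 and 0.19.

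Of 11 tested negative regulators, a list that includes TNFAIP3, none passed, and 6 differences were above 0. The brightest were TAX1BP1 and TNIP1, which assist A20, and RNF11, a ubiquitin ligase of the same complex, with differences of -0.053 ± 0.46, 0.13 ± 0.33 and 0.28 ± 0.21. Without the third CT16 array TAX1BP1 differed by 0.45 and TNIP1 by -0.20, both with the sign turned. ZC3H12A, named after its value was seen, encodes the RNase Regnase-1 that degrades cytokine transcripts. It differed by 1.80 ± 0.33 (adjusted p = 0.135), was detected on 1 control array, and without the third CT16 array passed the threshold at 1.53 (adjusted p = 0.0405).

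The other target list, which includes ICAM1, held 28 tested genes. Of these, 2 were higher in CT16 cultures past the threshold, against 18 of all 11264 genes, and none lower, and 22 differences were above 0, against 5320 of all genes, with a median of 0.46 that was 0.23 without the third CT16 array. The 2 became 1 without the first control or the first CT16 array, 4 without the third CT16 array and 5 without the third control. LCN2, the gene of the iron-siderophore binding protein lipocalin-2, had log2 signals of 4.45, 4.79 and 6.07 in control and 12.61, 12.63 and 12.65 in CT16 cultures. Of the control arrays 1 detected it, and the fitted difference of 7.52 ± 0.41 (adjusted p = 0.00117) was set mostly against background, and it passed without any 1 array. SAA1, the acute phase gene serum amyloid A1, was not detected in control cultures and was at least 11.8-fold higher in CT16 cultures (adjusted p = 0.00473), with an adjusted p of 0.0681 without the first control and 0.0537 without the first CT16 array. A second tested SAA1 probe gave a bound of 3.97-fold (adjusted p = 0.0281). CXCL8, the gene of interleukin-8, gave 9.43, 10.52 and 13.77 in control and 13.58, 13.74 and 11.88 in CT16 cultures. The third control array was the highest of all 6 and the third CT16 array the lowest of its group, and the difference was 1.83 ± 1.07 (adjusted p = 0.959). A second tested CXCL8 probe differed by 1.97 ± 1.19. By rank product at a looser threshold, the study listed interleukin-8 among the genes raised by CT16 overexpression.

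Several further targets were named after their values were seen. CCL2, a monocyte chemokine gene, gave 5.25, 4.99 and 9.13 in control and 8.90, 8.84 and 9.11 in CT16 cultures. The third control lay above all CT16 arrays, and the other controls were not detected. Its fitted difference was 2.49 ± 1.00 (adjusted p = 0.740). Without the third control, where CCL2 and CXCL1 were the highest of the controls, both passed (adjusted p = 0.0163 and 0.0119), and without any other array neither did (adjusted p = 0.436 to 1 and 0.208 to 1). SOD2, the mitochondrial superoxide dismutase, gave 10.10, 9.92 and 11.12 in control and 11.57, 11.48 and 11.70 in CT16 cultures, without overlap, and differed by 1.20 ± 0.34 (adjusted p = 0.409). EBI3, which encodes a subunit of heterodimeric cytokines, was detected on 1 control array and differed by 3.66 ± 0.56 (adjusted p = 0.0877), and it passed without the third CT16 array (adjusted p = 0.0362) or the third control (adjusted p = 0.0260). TNC, the matrix gene tenascin-C, was the other target with the lowest difference, at -0.66 ± 0.26. A second tested TNC probe differed by -0.11 ± 0.26.

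**Figure D4:**
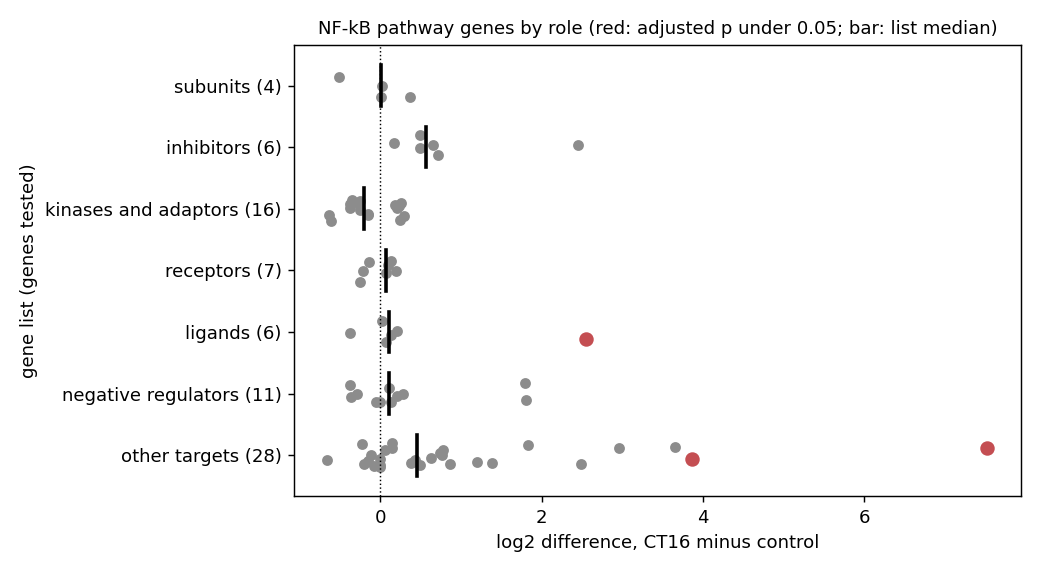
Log2 difference, CT16 minus control (horizontal axis), of every tested gene in the 7 role lists, with 1 point per gene, a black bar at each median and genes with an adjusted p under 0.05 in red. IL1B, LCN2 and SAA1 are the red points, and the medians run from -0.20 for kinases and adaptors to 0.57 for inhibitors.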

How the data were processed

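RNA of 3 CT16 and 3 control cultures was amplified, biotin-labelled and hybridised by the authors to 1-colour Illumina Human-6 arrays. The authors deposited bead intensities per probe, not normalised between arrays, in 48804 rows of which 1 repeated an identifier and was averaged. The deposited table also holds, for each array, the detection p-value of every probe, computed by the authors against negative control beads before deposit. What program summarised the beads was not given in the sources used here. They also deposited quantile normalised intensities, which differed by at most 1.01% from quantile normalised values computed here from the first table and were used as an alternative. Groups came from the sample descriptions, and no array date or slide was used.

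In R 4.3.3, limma 3.58.1 gave log2 signals after normexp background correction (nec, with the negative controls estimated through the detection p-values), addition of an offset of 16 and quantile normalisation. Probes with a detection p under 0.01 on at least 3 of 6 arrays were tested with lmFit and eBayes, two-sided, with a term for the plasmid, and p-values were adjusted by Benjamini-Hochberg over 18156 probes. The labels do not say whether the replicates were separately grown. The p-values therefore measure the spread between the replicate samples and not between transfections. A gene was represented by its brightest tested probe. Where a group was undetected, a bound was taken against the lowest detected signal of each array. An adjusted p printed with a bound is that of the fitted difference. Such a probe met the detection filter through the other group alone. The fit was tested on simulated data. Probe names came from the platform annotation: 27578 probes had 1 symbol, 13 several and 21212 were not listed. The number of arrays limits the precision. Signals of different probes were not compared as levels.

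The members and lists were chosen with earlier results of these data known. Named were all members, list genes past the threshold and otherwise the brightest of each list up to 3, TNF, IL1A, IL1B, REL, PAGE5 and the 5 genes most like TNFAIP3. Rank product with 100 permutations was an alternative, as were other backgrounds, normalisations, filters, array weights and leaving out arrays. The array weights were estimated gene by gene, because the REML estimate did not converge. Promoter windows were RefSeq sequences of GRCh38.p14. Coordinates of the probes were not used.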

Additional observations from a re-analysis of the deposited data

How the results depend on the processing

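No member passed the threshold with all 6 arrays in limma without array weights. With array weights 1 did, TNFAIP3, as it did under rank product and without both arrays numbered 3, the last chosen after the data were seen. Probes past the threshold numbered 36, and 1879 with array weights, 246 by rank product, 236 without both arrays numbered 3, 7 when detection on all 6 arrays was required, and 4 to 205 without 1 array, the highest without the third CT16 array. The member median, 0.26, lay between 0.036, without the second control, and 0.57, without the third.

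Of 144 member results under alternatives, rank product not counted, 130 kept direction and side of the threshold, 2 passed it and 12 reversed. The other detection filters, the replicate block and a changed eBayes prior cannot alter a difference, so directions kept under them carry no information. The authors' normalised values gave the same differences as the fit without background correction. The count of kept results is therefore not a measure of robustness. RELB was -0.081 under median scaling, -0.048 under cyclic loess and -0.24 without both arrays numbered 3. Without 1 array, RELB ranged from -0.32 to 0.32, NFKB1 from -0.061 to 0.17, NFKBIA from -0.13 to 0.68 and NFKB2 from -0.056 to 0.61. The cause of these changes was not tested.

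Deviations of same-numbered arrays from their group means correlated at -0.62, 0.61 and -0.58. Single arrays far from their group weigh heavily in these values. They therefore cannot decide whether the replicate numbers pair the cultures. With the replicate number as a block, 0 members and 3 probes passed. The member median was again 0.26, which the block cannot change because each number occurs once per group. Signals near background, such as ICAM1 and the second NFKB2 probe, have compressed differences because of the offset.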
